A study of Homo sapiens with 2 samples.

Results

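Keratins are the intermediate filament proteins of epithelial cells. A filament is built from pairs of 1 acidic type I and 1 basic to neutral type II keratin, so the genes are usually expressed in matching pairs: KRT5 with KRT14 in the basal layer of stratified epithelium, KRT4 with KRT13 in the upper layers of mucosa, KRT8 with KRT18 in simple epithelium. Which pairs a squamous carcinoma keeps is used by pathologists to describe its differentiation. The keratin family was taken as the transcript clusters, the gene-level units of the array, that are paired with exactly 1 of 54 keratin symbols, and 47 of these genes were measured among 22465 named genes. KRT6A, KRT6B, KRT17, KRT34, KRT81, KRT82 and KRT86 were not analysed here, because no cluster was paired with the symbol alone.

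RNA came from cultures of FaDu, a human cell line from a squamous cell carcinoma of the head and neck. One group is the untreated parental line and the other a FaDu line that the labels call cetuximab resistant. Cetuximab is an antibody against the epidermal growth factor receptor. Each group is 1 Affymetrix Human Transcriptome Array 2.0, and the labels state neither the drug dose, nor the time under selection, nor whether the resistant line is 1 clone. Replicates are missing in both groups, so no test could be made. The values are log2 expression values, the difference is always the resistant minus the parental array, and resistance cannot be told apart from culture, passage or array.

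Background was set at the 95th percentile of 394 olfactory receptor genes, at 5.19 in parental against 5.21 in resistant cells. A lower value was raised to its array's background before a difference was counted, so a gene below background on both arrays has a difference of 0.02, the gap between the levels. The median over all named genes was also 0.02. As an indication of scatter among dim clusters, the deposited differences of the olfactory receptor genes had an SD of 0.42 over genes, which is not a replicate error. Of 7 general epithelial markers, 7 lay above background in parental and 6 in resistant cells. Of 6 measured squamous markers, 6 and 4 did, with DSG3 and DSC3, cadherins of squamous desmosomes, below background on the resistant array only. At 2-fold, 4 of these 6 were lower and 1 was higher, against 6.82% and 7.83% of all named genes. The higher marker was SERPINB5, at 9.69 and 11.32, and PERP was nearly level, at 12.30 and 12.14. Of 8 fibroblast markers, 1 lay above background, on both arrays (COL1A1, at 5.22 and 5.26), and of 5 endothelial markers also 1 (CDH5, at 6.14 and 6.98). Of 6 leukocyte markers, 1 did in parental and 2 in resistant cells. The brightest of these was CD68, a lysosomal gene that is not limited to leukocytes, at 11.19 and 9.71, and the leukocyte gene PTPRC stood at 3.92 and 3.98.

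Several keratins of stratified epithelium were far lower on the resistant array. Of the simple epithelial keratins, KRT19 was nearly level, KRT8 and KRT18 were slightly higher but short of 2-fold, and KRT7 was higher past 2-fold. Of the 47 keratins, 6 were at least 2-fold lower (12.8%), where 6.82% of all named genes were. All 6 belong to the 19 measured stratified keratins: KRT4, KRT14, KRT5, KRT15, KRT6C and KRT13. Only KRT7, a simple epithelial keratin, was at least 2-fold higher (2.1%), where 7.83% of all named genes were. At 8-fold, 3 keratins were lower (KRT4, KRT14 and KRT5), against 0.659% of all named genes, and 0 were higher, against 0.961%. In a bulk culture, fewer cells that express a gene and less of its RNA per cell cannot be told apart.

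By group, the median difference was -0.31 for the 19 stratified, 0.34 for the 6 simple epithelial and 0.02 for the 22 hair keratins. The stratified median turned to 0.35 with the 99th percentile of olfactory receptor genes as background, a level that most members do not reach. It was -1.02 over the members that passed a filter on dim genes. That filter uses the mean over both arrays, and KRT14 and KRT3 passed it only through their parental values. The value of -1.02 is therefore no separate support for lower expression. The stratified keratins had 6 members lower, 0 higher and 13 at neither. The simple epithelial keratins had 0 lower, 1 higher and 5 at neither. The 22 hair keratins were all at neither, but 17 of them were below background on both arrays, which by itself sets their median at 0.02. By filament type, 3 of 26 type I and 3 of 21 type II keratins were at least 2-fold lower.

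**Figure D1:**
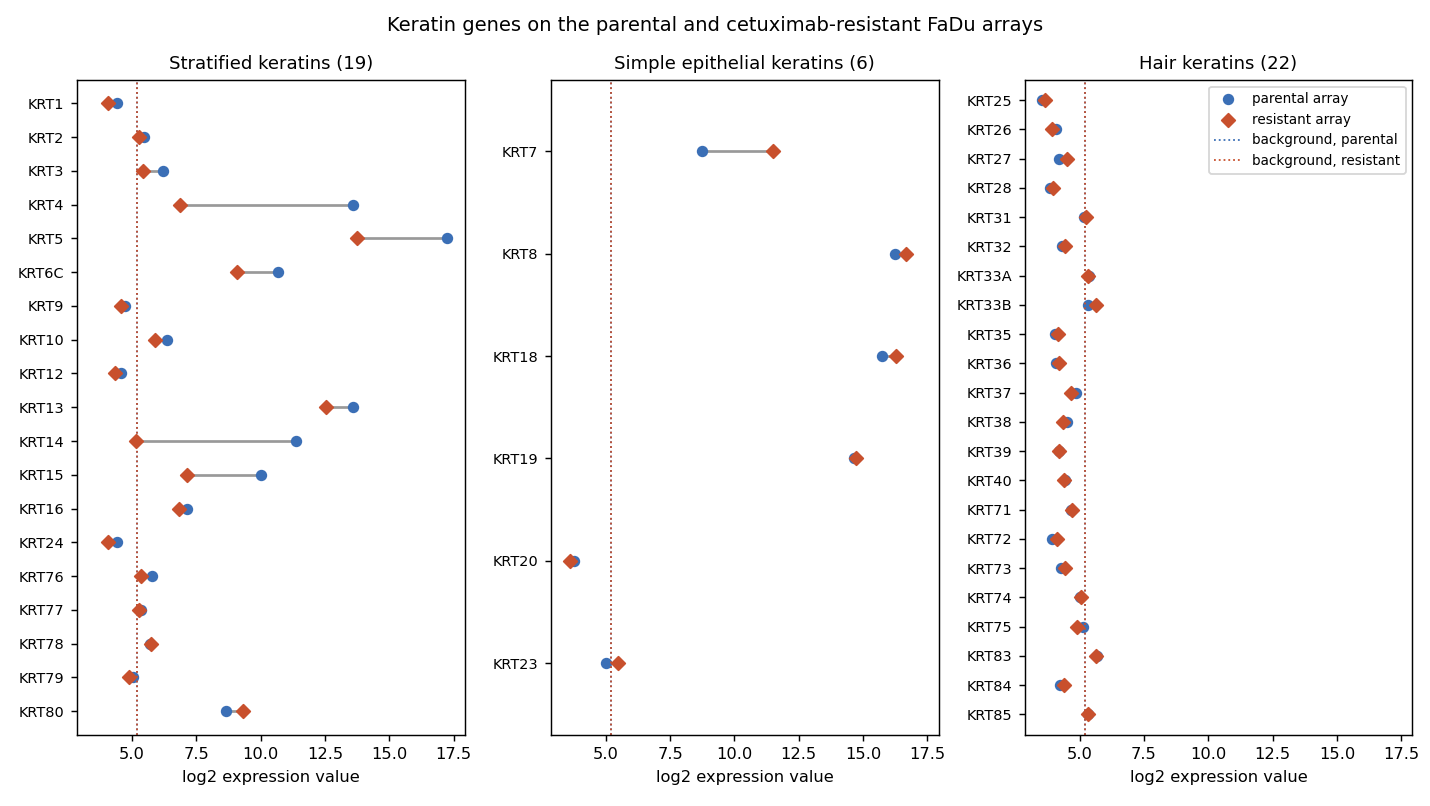
Log2 expression values of the 47 measured keratin genes on the parental array (blue circles) and the cetuximab-resistant array (orange diamonds), 1 array each, by keratin group; dotted lines mark the background level of each array, which nearly coincide at 5.19 and 5.21. KRT4, KRT14, KRT5 and KRT15 show the widest gaps towards lower resistant values, KRT7 the widest in the other direction, and the hair keratins lie at or near background on both arrays.

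KRT5 and KRT14 form the filaments of basal keratinocytes, the proliferating layer of stratified epithelium. KRT5 stood at 17.25 in parental against 13.75 in resistant cells, 11.3-fold lower, and 96 of the 22465 named genes, itself included, had a difference as low. It nevertheless stayed far above background on the resistant array. KRT14 was measured at 11.39 in parental cells and was just under background in resistant cells, at 5.17, which makes it at least 72.3-fold lower. With the 99th percentile level of olfactory receptor genes as background, its difference was -4.23 in place of -6.18, so the bound depends on the level chosen. The partners therefore differed in extent: KRT5 had a difference of -3.50 log2 units and remained bright, while KRT14 was no longer above background. KRT15, a type I keratin of basal cells that marks the stem cell region of the hair follicle, stood at 10.03 and 7.15, 7.36-fold lower. Its resistant value lay just under the level that 99% of olfactory receptor genes stay below on that array (7.16, the 99th percentile level), so this fold is imprecise.

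KRT4 and KRT13 pair in the suprabasal layers of non-cornified mucosa, the type of epithelium that lines the mouth and the pharynx. KRT4 stood at 13.61 in parental against 6.88 in resistant cells, 106-fold lower, the largest measured difference of the family, although KRT14 has only a bound. Of all named genes, 7, KRT4 included, had a difference as low. The resistant value was above background but below the 99th percentile level, which again leaves the fold imprecise. KRT13 stood at 13.58 and 12.56, 2.03-fold lower and only just past the 2-fold threshold. With the arrays centred on their medians its difference was -0.95, short of 2-fold. Within the mucosal pair the difference of the type II gene was thus far larger than that of the type I gene.

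For the lower keratins with an entry in the RefSeq promoter table, and for KRT3, the keratin gene next to KRT4, the 100 bases before the annotated start are shown to set the proximal promoters side by side. Capitals mark TATAA, the core of the TATA box that positions transcription starts, searched on both strands. The windows are on the minus strand of GRCh38.p14, at chr12:52814117-52814216 for KRT4, chr12:52520395-52520494 for KRT5 and chr12:52796118-52796217 for KRT3.
KRT4: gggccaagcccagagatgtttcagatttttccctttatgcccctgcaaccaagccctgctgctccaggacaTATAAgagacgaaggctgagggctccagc
KRT5: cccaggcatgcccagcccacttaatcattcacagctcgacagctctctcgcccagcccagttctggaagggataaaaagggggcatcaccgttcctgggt
KRT3: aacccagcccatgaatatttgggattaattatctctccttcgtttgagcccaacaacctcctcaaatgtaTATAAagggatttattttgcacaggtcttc
The motif begins 29 bases before the start of KRT4 and 30 bases before that of KRT3. These exact letters are not in the KRT5 window. That window holds the similar run gataaaaag, which a search for exact letters does not count, so a TATA box is not shown to be absent there. Over 250 bases before the start, 25 of the 34 family members in the table held TATAA on either strand (73.5%), against 22.5% of all 27305 genes in the table. By group these were 8 of 10 stratified, 17 of 22 hair and 0 of 2 simple epithelial keratins. CCAAT was present in 47.1% of the 34 keratins and 37.0% of all genes, and GGGCGG, the GC box, in 11.8% and 46.2%. The pattern TGANTCA, with any base at N, includes the motif of AP-1 factors but is looser than it. This pattern was found in 0 of the 34 windows and in 8.1% of all genes. These matches describe letters and were not tested as binding sites.

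KRT6C and KRT16 belong to the keratins that are induced in wounded and hyperproliferative epidermis. KRT6C stood at 10.68 in parental against 9.09 in resistant cells, 3.01-fold lower. Its sequence is nearly the same as that of KRT6A and KRT6B, so the cluster may read all of them. KRT16 stood at 7.14 and 6.83, near the 99th percentile level of both arrays (6.81 and 7.16), with a difference of -0.31, inside the scatter of dim clusters. KRT17, another type I keratin of wounded epidermis, was not analysed through a cluster of its own. Clusters of its pseudogenes KRT17P1 and KRT17P2, copies of KRT17 elsewhere on chromosome 17, were bright on the parental array, at 12.43 and 11.93, and far dimmer on the resistant array, at 7.52 and 6.90. Probes of such copies can also bind the parent transcript, and whether these values are those of KRT17 was not tested. Clusters of the KRT16 pseudogenes KRT16P2 and KRT16P3 had differences of -0.95 and -0.71, short of 2-fold.

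The remaining stratified keratins were dim, apart from KRT80. KRT80, a type II keratin found in many epithelia, stood at 8.66 and 9.30, a difference of 0.64 and short of 2-fold. KRT10, the type I keratin of cornifying epidermis, stood at 6.35 and 5.90. KRT3, a keratin of the cornea, stood at 6.21 and 5.44, and KRT76, of the palate and gingiva, at 5.77 and 5.35. KRT78, KRT2 and KRT77 lay just above background on both arrays, with differences of 0.06, -0.16 and -0.05. KRT1, KRT9, KRT12, KRT24 and KRT79 were below background on both arrays. KRT1 and KRT10, the markers of epidermal cornification, were thus at or close to background in both lines. All values in this paragraph except those of KRT80 lie under the 99th percentile level.

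**Figure D2:**
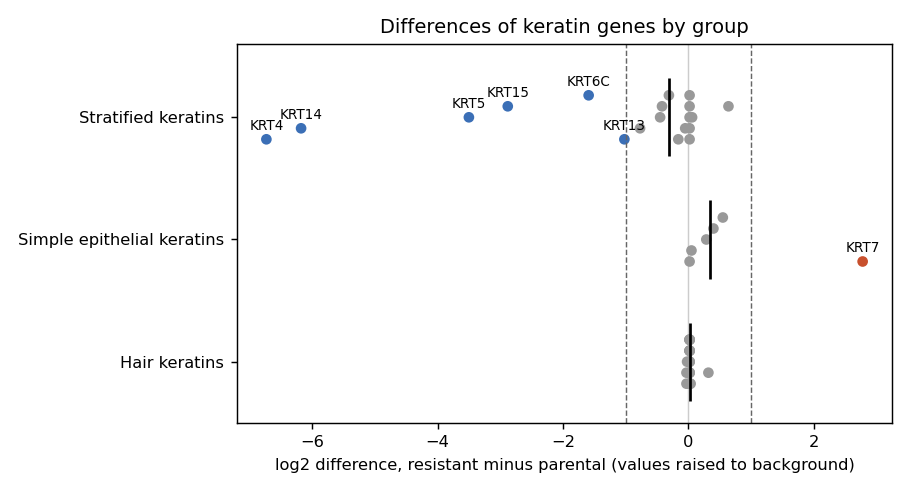
Differences of the 47 keratin genes (log2 value of the resistant minus the parental array, each value first raised to its array's background), by keratin group; each point is a gene, points at 0.02 overlap, black bars are group medians (-0.31, 0.34 and 0.02), and dashed lines mark 2-fold. The 6 lower genes (blue) are all stratified keratins, and KRT7 (orange) is the only higher gene.

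KRT8 and KRT18, the pair of simple epithelia and the first keratins of the embryo, were bright on both arrays. KRT8 stood at 16.25 in parental against 16.65 in resistant cells, a difference of 0.40. KRT18 stood at 15.73 and 16.28, a difference of 0.55. Both were slightly higher on the resistant array and short of 2-fold. A second cluster paired with KRT8, whose identifier places it on chromosome 8 rather than on chromosome 12, stood at 13.94 and 14.58. Clusters of the pseudogenes KRT8P11, KRT8P12, KRT18P52 and KRT18P55 had differences of 0.71, 0.64, 0.81 and 0.52, in the same direction as the genes they derive from and open to the same sharing of probes.

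KRT7, the type II keratin of ductal and glandular epithelia, stood at 8.73 in parental against 11.51 in resistant cells, 6.87-fold higher. Among all named genes, 258, itself included, had a difference as high. KRT19, the smallest keratin and a type I partner of KRT7 and KRT8, stood at 14.66 and 14.71. KRT7 was thus far higher while KRT19 was nearly level. KRT23, a type I keratin, stood at 5.02 and 5.48, above background on the resistant array only and by 0.29 after raising. KRT20, the keratin of intestinal epithelium and of Merkel cells, was below background on both arrays, at 3.77 and 3.60.

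Set side by side, known partners did not always share the size of their difference. Of 8 partner pairs with both genes measured, 5 had both genes above background on at least 1 array. The differences were -3.50 for KRT5 and -6.22 for KRT14 as deposited, -6.73 for KRT4 and -1.02 for KRT13, and 0.40 for KRT8 and 0.55 for KRT18. They were 2.78 for KRT7 and 0.05 for KRT19, and -0.16 for KRT2 and -0.45 for KRT10. The differences of KRT8 and KRT18 lay close together and those of KRT4 and KRT13 far apart. KRT14 was below background on the resistant array, so the gap between KRT5 and KRT14 is not measured in full. Only differences are compared, because levels of different clusters are not comparable on an array.

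Hair keratins make up the shaft and the root sheath of the hair follicle and are not part of the usual program of mucosal squamous cells. Of the 22 measured, 17 were below background on both arrays, and their deposited differences reached at most 0.32 in size. All 9 root sheath keratins, KRT25 to KRT28 and KRT71 to KRT75, were among these 17. Above background on at least 1 array were the 5 shaft keratins KRT31, KRT33A, KRT33B, KRT83 and KRT85. KRT83 stood at 5.66 in parental against 5.63 in resistant cells. KRT33B had the largest difference among them, at 5.33 and 5.65. All values of the 22 measured hair keratins lay under the 99th percentile level of their array.

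The genes of nearly all type I keratins lie together on chromosome 17 and those of type II keratins on chromosome 12, where KRT18 sits at the end next to KRT8. Between KRT80 and KRT18 on chromosome 12, 3 of 22 measured keratins were lower by 2-fold or more and 1 was higher. Their calls did not form 1 block, but most keratins between KRT5 and KRT4 could show little or no fall. KRT71, KRT72, KRT73, KRT74 and KRT1 were below background on both arrays. KRT2, KRT77, KRT76 and KRT3 were dim in parental cells, at 5.45, 5.33, 5.77 and 6.21. Their differences were -0.16, -0.05, -0.42 and -0.77. Whether lower expression spans this stretch was therefore not tested. KRT6C and KRT5 were adjacent among measured genes and both lower. KRT4 stood between KRT3, at -0.77, and KRT79, which was below background on both arrays, and KRT7 stood near the opposite end. On chromosome 17, the lower genes KRT13, KRT15 and KRT14 lay close together, interrupted by KRT19 at 0.05 and by KRT9 at background. The other 22 measured keratins there and all 28 keratin-associated protein genes between them were at neither. Most of them were below background on both arrays and could not show a fall, so how far lower expression extends on chromosome 17 was not tested either.

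Just outside these loci, NR4A1, an immediate early nuclear receptor, stood at 9.75 and 6.75 and IGFBP6, an insulin-like growth factor binding protein, at 9.11 and 8.03 on the chromosome 12 side. On the chromosome 17 side IGFBP4, of the same family, stood at 6.82 and 10.12. JUP, which encodes the desmosomal linker plakoglobin, stood at 12.34 and 11.32. These were the 4 past 2-fold (3 lower, 1 higher) of 20 flanking genes, and 16 were at neither. Over all named genes 6.82% were lower and 7.83% higher. Among genes whose mean over both arrays lay above the median of that mean (5.72), the shares were 13.3% and 15.1%.

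**Figure D3:**
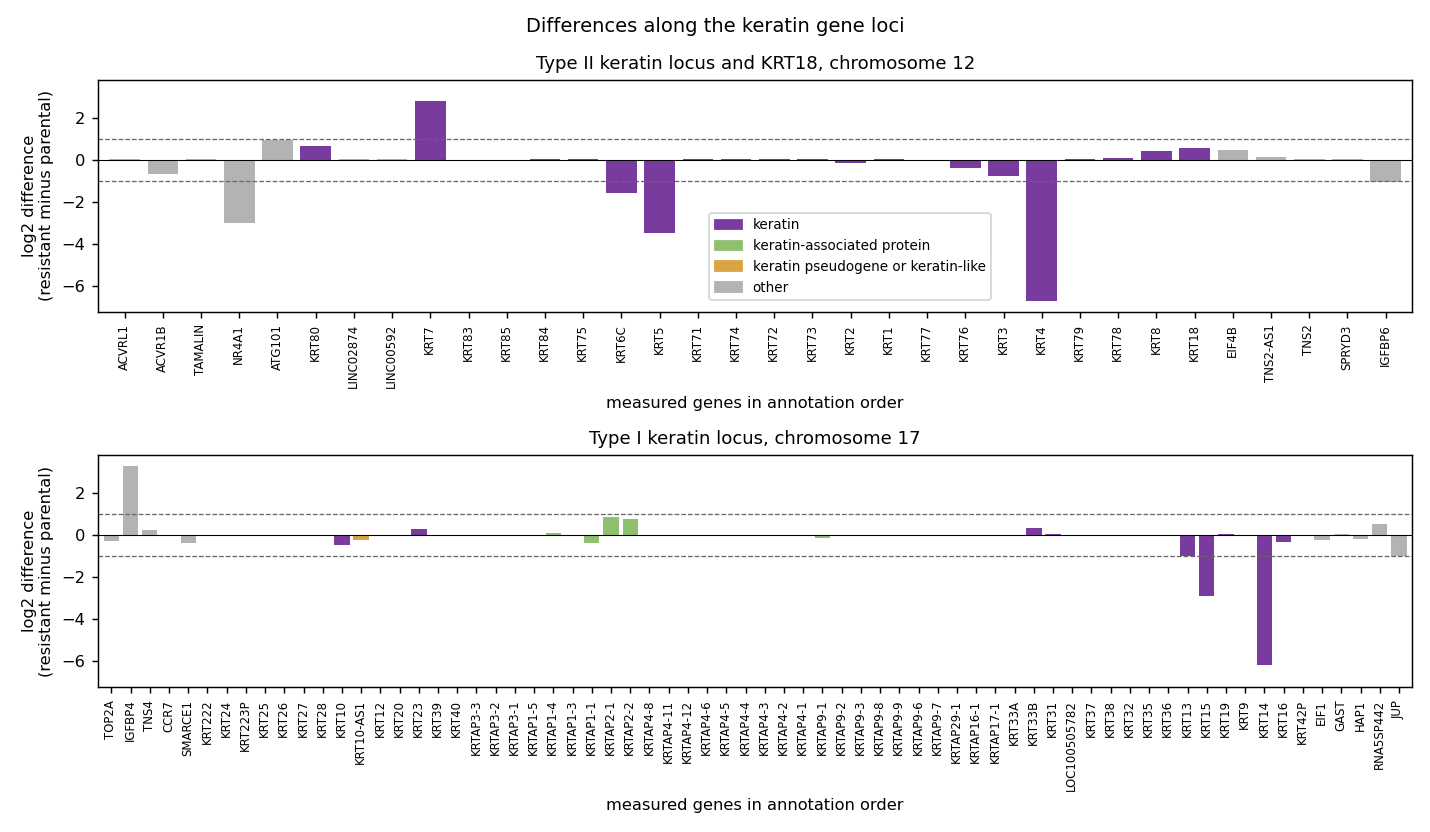
Differences (log2 value of the resistant minus the parental array, raised to background) of measured genes in annotation order across the type II locus with KRT18 on chromosome 12 (top) and the type I locus on chromosome 17 (bottom), with 5 flanking genes on each side; colours give the kind of gene and dashed lines mark 2-fold. By the 2-fold call, the lower keratins are single genes or short runs, KRT6C with KRT5, KRT4 alone, KRT13 with KRT15, and KRT14. Their neighbours KRT75, KRT71, KRT79, KRT36 and KRT9 were below background on both arrays and could not show a fall. KRT3, beside KRT4, was at -0.77, KRT16, beside KRT14, at -0.31, and KRT19, beside KRT15, at 0.05.

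Keratin filaments are anchored at desmosomes by plakins and plakophilins and are bound by further proteins. Of 18 such genes, 7 were lower by 2-fold or more on the resistant array and 1 was higher, with a median difference of -0.28 against 0.02 over all named genes. Over all named genes 6.82% were lower and 7.83% higher. Of the 18 genes, 17 were above background on both arrays, and among the brighter genes, those whose mean over both arrays exceeds its median of 5.72, the shares were 13.3% and 15.1%. PKP1, a plakophilin of stratified epithelium, stood at 8.52 in parental against 5.50 in resistant cells. DSP, which encodes desmoplakin, the main link between desmosome and keratin, stood at 15.31 and 12.31. PPL, which encodes the cornified envelope plakin periplakin, stood at 11.22 and 8.30, and PNN, which encodes the keratin-binding protein pinin, at 13.36 and 11.49. EPPK1, JUP and SFN were the other lower genes. JUP and SFN were only just past 2-fold, and with the arrays centred on their medians they were at -0.95 and -0.97, which leaves 5 of 18 lower. PLEC, which encodes plectin, the linker of keratin to hemidesmosomes, was the only higher one, at 9.20 and 10.35. EPPK1, JUP, SFN and PLEC are named after their values were seen. PKP2, the plakophilin of simple epithelia as well, stood at 13.00 and 13.24 and was likewise chosen after its value was seen.

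Of 21 measured transcription factors known to act on keratin genes, 4 were at least 2-fold lower and 4 higher, with a median of 0.04. These shares (19.0% each) were near those of the brighter genes, 13.3% and 15.1%. EHF, an ETS factor of epithelia, stood at 8.37 in parental against 12.12 in resistant cells, 13.5-fold higher. SOX9, a factor of ducts and hair follicle stem cells, stood at 9.18 and 12.10, and GATA3, a factor of luminal and urothelial cells, at 6.75 and 9.55. ELF3, an ETS factor of differentiating epithelia, stood at 10.33 and 7.76. The others past 2-fold, named after their values were seen, were TFAP2A, SOX2 and KLF5 on the lower side and OVOL1 on the higher side. TP63, the main factor of stratified epithelium, was not analysed here. Whether any of these differences bears on a keratin was not tested.

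Among 15 other intermediate filament genes, 0 were lower by 2-fold or more and 2 were higher, with a median of 0.02. The shares over all named genes were 6.82% and 7.83%. VIM, the gene of vimentin, the filament of mesenchymal cells, was below background on the parental array, at 4.57, and stood at 5.91 on the resistant array, below the 99th percentile level. INA, a filament gene of neurons, stood at 5.26 and 12.12, and NEFH, a neurofilament gene, at 5.06 and 7.23, at least 4.10-fold higher. The resistant value of NEFH was only just above the 99th percentile level of that array (7.16), and its parental value was under that of its own (6.81). Its bound therefore depends on the background level chosen. The nuclear lamin genes LMNA, LMNB1 and LMNB2 differed by 0.05, -0.67 and 0.17.

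**Figure D4:**
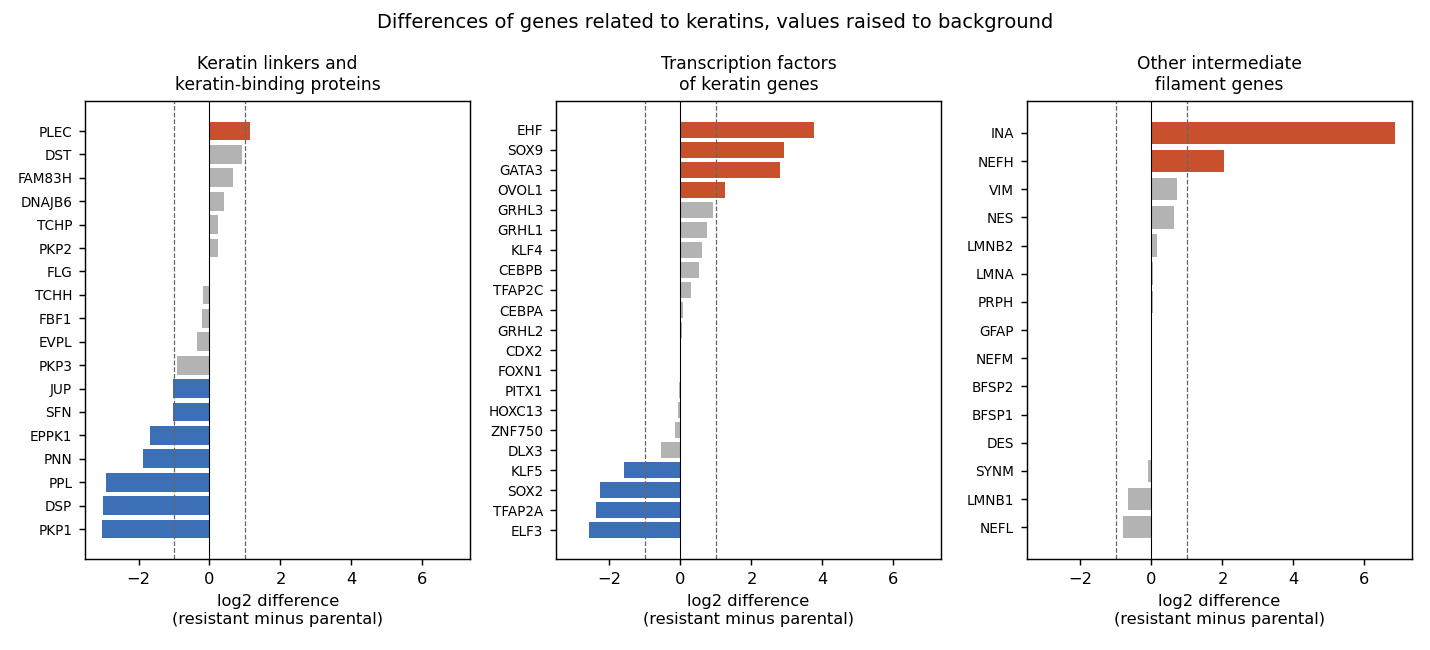
Differences (log2 value of the resistant minus the parental array, raised to background) of genes for keratin linkers and keratin-binding proteins (18), transcription factors of keratin genes (21) and other intermediate filaments (15); blue bars are at least 2-fold lower, orange bars at least 2-fold higher, dashed lines mark 2-fold. Most linker genes past 2-fold are lower, the transcription factors past 2-fold are 4 lower and 4 higher, and INA has the longest bar.

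Among genes whose mean over both arrays lay above the median of that mean (5.72), 13.3% were at least 2-fold lower and 15.1% higher. Only 15 of the 47 keratins passed this level, 11 stratified, 4 simple epithelial and 0 hair keratins. These 15 hold the 6 lower keratins and KRT7, as any gene that differs must be bright on 1 array, so the counts over all 47 are the ones to read.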

How the data were processed

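Total RNA of 2 cultures was hybridised to 1 array each. The authors deposited a log2 value for each of 67528 transcript clusters. Affymetrix Expression Console was used, per the submitters' processing notes. The sources used here do not state its version, algorithm or genome build. The log2 unit was inferred from the deposited values, which ran from 1.95 to 19.78. The sorted columns differed by a median of 0.06, so the arrays had nearly the same distribution, which hides any difference in total RNA per cell. Detection calls and scan information were not used here, and the number of arrays limits the precision.

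A platform annotation table gave 1 symbol for 23781 clusters, several for 1543 and none for 42204. For 21497 clusters the gene identifier was found in RefSeq (GRCh38.p14) and the symbol was taken from there, whether or not it changed. The brightest cluster stood for each of 479 genes with several. A gene was counted at 2-fold after raising values to background. Where 1 array was at or below background, the fold is "at least". The keratins and all other lists were chosen with earlier results of these data known. Named are keratins at least 2-fold different or above background, and up to 4 such genes of each other list, with VIM. Promoter sequences are from RefSeq (GRCh38.p14), for 34 of 54 keratins. The alternatives were centring, loess, quantile normalisation, other background levels and thresholds, averaging a gene's clusters, a filter on dim genes and narrower keratin groups. The code for the calls was checked on simulated arrays, with changes planted only in bright genes. Their noise was below the scatter of the olfactory receptor genes, so this gives no error rate for the calls. Python 3.11.15, pandas 2.3.3, numpy 2.4.6 and statsmodels 0.14.6 were used.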

Additional observations from a re-analysis of the deposited data

How the results depend on the processing

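The count of keratins at least 2-fold lower stayed between 5 and 6 under every normalisation, background level and filter run at the 2-fold threshold, and the count higher stayed at 1. The gene lost was KRT13, at -0.95 after centring on the medians and -0.93 after both loess and quantile normalisation. With a 4-fold threshold 4 keratins were lower, and with a 1.5-fold threshold 7 were lower and 2 higher, the added genes being KRT3 and KRT80. The median of the stratified keratins was 0.35 with the 99th percentile as background, because that level differed between the arrays by this amount and most members lay below it on both. It was -1.02 over members whose mean passed the filter on dim genes, because dim members were left out. KRT14 and KRT3 passed that filter only through their parental values. No hair keratin passed that filter, so it gives no median for them. The other group medians moved by less than 0.42. Of 183 values for 24 single keratins under the alternatives, 5 moved by more than 0.42 and 0 changed direction among the genes at least 2-fold different. All 5 came from the 99th percentile background, where KRT14 was at -4.23. The others were KRT2, KRT3, KRT10 and KRT76, all short of 2-fold and below that level on both arrays. Their negative differences became 0.35, the gap between the levels. A background from olfactory receptor genes without 29 pseudogenes, chosen after seeing the data, left both counts at 6 and 1. No paired analysis was possible because each group holds 1 array, and for the same reason no array could be left out. Values below about 7 on either array are limited by background.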

Other observations

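Keratin-associated proteins cross-link the keratins of the hair shaft, and their 87 measured genes were mostly dark in both lines, with 72 below background on both arrays and 0 at least 2-fold different after raising. KRTAP2-2 had deposited values of 4.59 in parental against 5.96 in resistant cells, and its neighbour KRTAP2-1 of 5.81 and 6.66. KRT222, a keratin-like gene next to the type I locus, and KRTDAP, a gene of differentiating keratinocytes, were below background on both arrays. KRT10-AS1, an antisense transcript at KRT10, was above background on both arrays, with a difference of -0.22.

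Over the 12 measured keratin pseudogenes, 2 were at least 2-fold lower, KRT17P1 and KRT17P2 (30.1-fold and 32.7-fold), and 0 were higher.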
